A study of Mus musculus with 8 samples.

Results

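Fibroblast growth factor (FGF) signalling was described across the cells of mouse parietal bone through 10 genes picked by symbol from the 31053 genes counted in each library. They were the receptors Fgfr1, Fgfr2 and Fgfr3, the ligands Fgf2, Fgf9 and Fgf18, and 4 genes that report or damp the signal, Spry1, Spry2, Dusp6 and Etv5. All 10 were found. FGF ligands bind receptor tyrosine kinases together with heparan sulphate, and the receptors pass the signal through adaptor proteins to RAS and the kinase ERK. ERK then switches on the Sprouty proteins, which block the cascade upstream, the phosphatase Dusp6, which removes phosphate from ERK, and ETS-family transcription factors such as Etv5. In the flat bones of the skull this pathway is known for setting the balance between dividing progenitors and bone-forming cells at the sutures, and activating changes in the receptors cause sutures to close too early in people.

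Droplet single-cell RNA sequencing was carried out on parietal bones of mice 4 to 5 days old. The strain of all mice was B6.129(FVB)-Col1a2tm1Mcbr/J, and 4 libraries came from wild type (WT) animals and 4 from animals heterozygous (Het) for G610C, a change of a glycine to a cysteine in the helical part of the Col1a2 product, a model of osteogenesis imperfecta, the brittle bone disease. No agent was given to either group. Each library pooled cells of up to 5 animals of 1 genotype, so the p-values measure the spread between pools. Kit version 3 of 10x Genomics served for S1 to S4, of which the first pair was WT and the second Het. Kit version 3.1 served for S5 to S8, again WT in the first pair and Het in the second. The counting software also changed with the kit, from Cell Ranger 5.0.0 to 6.0.1. Effects of the kit, of the software and of any other difference between S1 to S4 and S5 to S8 cannot be told apart. All comparisons of kit versions were added after the levels had been seen.

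Of 68625 barcodes, 46420 passed the limits of at least 500 detected genes and under 10% mitochondrial unique molecular identifiers (UMIs). Osteoblasts (OBs) had at least 10 UMIs of Col1a1, the gene of the pro-α1(I) chain, and at least 2 UMIs of at least 2 of Runx2, Sp7 and Ibsp, and there were 2671 of them, 1706 WT and 965 Het. By the share of Col1a1 in a cell's UMIs, 379 were early OBs (eOBs, under 0.75%), 1217 differentiating OBs (dOBs) and 1075 mature OBs (mOBs, over 3.5%). The comparison classes were 15370 other cells with over 1% of their UMIs from Col2a1, the cartilage collagen gene, and 28379 further cells. In every library all 8 OB markers that the selection did not use were higher in OBs than in both other classes, and all 8 cartilage markers were higher in the Col2a1-high cells. Libraries held from 30480239 to 85162035 UMIs, and the median OB of a library held from 10757 to 19299. Libraries S1 and S2 stood apart in the further cells, where 2393 of 4429 and 2012 of 4473 were haematopoietic-like, and pairs of libraries shared from 1 to 24 cell barcodes. Levels below are the UMIs of a gene over all UMIs of a class in 1 library, on the counts-per-million scale (CPM). Differences are log2 differences with standard errors from edgeR's quasi-likelihood test, with p-values adjusted by Benjamini-Hochberg over all genes tested and called at 0.05.

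Promoters of 4 members are printed, Fgfr2, which had the largest kit difference of the members tested in mOBs, and Spry1, Dusp6 and Etv5, the genes reporting or damping the signal that could be tested across OB stages. Each window runs from 250 bases before to 50 after the RefSeq start in build GRCm38.p6, 5′ to 3′ on the strand of the gene. Capitals mark AGGAAG, the core of the PEA3 site of ETS factors, and GGGCGG, the GC box, or their reverse complements CTTCCT and CCGCCC.
Fgfr2, chr7:130266759-130267058, minus strand: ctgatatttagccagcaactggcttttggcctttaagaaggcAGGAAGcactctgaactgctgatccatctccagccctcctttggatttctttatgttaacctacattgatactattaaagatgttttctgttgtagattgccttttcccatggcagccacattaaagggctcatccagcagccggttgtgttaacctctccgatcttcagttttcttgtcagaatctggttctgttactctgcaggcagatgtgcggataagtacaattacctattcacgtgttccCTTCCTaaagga
Spry1, chr3:37639697-37639996, plus strand: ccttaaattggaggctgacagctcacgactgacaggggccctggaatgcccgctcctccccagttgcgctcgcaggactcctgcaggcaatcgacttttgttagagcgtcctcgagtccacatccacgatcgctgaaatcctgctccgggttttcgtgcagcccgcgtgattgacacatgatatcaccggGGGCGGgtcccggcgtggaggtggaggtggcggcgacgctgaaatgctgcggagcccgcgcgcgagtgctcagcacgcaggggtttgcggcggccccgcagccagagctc
Dusp6, chr10:99262981-99263280, plus strand: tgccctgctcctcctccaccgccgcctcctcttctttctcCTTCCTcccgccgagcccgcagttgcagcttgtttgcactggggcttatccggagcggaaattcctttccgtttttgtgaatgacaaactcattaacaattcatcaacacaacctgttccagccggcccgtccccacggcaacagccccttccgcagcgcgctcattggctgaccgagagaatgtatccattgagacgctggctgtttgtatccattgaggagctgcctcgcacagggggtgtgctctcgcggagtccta
Etv5, chr16:22439521-22439820, minus strand: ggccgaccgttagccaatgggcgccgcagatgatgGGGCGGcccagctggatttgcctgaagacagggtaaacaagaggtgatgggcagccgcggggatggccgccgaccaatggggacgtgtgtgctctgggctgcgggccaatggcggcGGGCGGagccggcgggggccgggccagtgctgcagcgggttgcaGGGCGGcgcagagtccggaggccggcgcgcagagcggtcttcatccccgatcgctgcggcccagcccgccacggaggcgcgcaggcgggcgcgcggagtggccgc
The table of promoters held 9 of the 10 members, and Fgfr1 was not in it. The motifs searched, on both strands, were CCGGAAGT (ETS), AGGAAG (PEA3 core), TGTGGT (RUNX), TGACGTCA (CRE), TGACTCA (AP-1) and GGGCGG (GC box). Among 32851 promoter windows of the same length, 3.89% held CCGGAAGT, 35.4% AGGAAG, 16.8% TGTGGT, 1.79% TGACGTCA, 5.20% TGACTCA and 35.7% GGGCGG. The Dusp6 window held 1 AGGAAG on the reverse strand, 210 bases before the start, and the Fgfr2 window held 2, 208 bases before the start and, reversed, at base 38 after it. The Spry1 window held 1 GGGCGG, 60 bases before the start. The window of the upstream Etv5 start held 3, at 215, 99 and 55 bases before it, whereas the window of the second start (chr16:22438319-22438618, not printed) held none and 1 AGGAAG, at base 1. CCGGAAGT, TGTGGT, TGACGTCA and TGACTCA were not found in the windows of the 9 members.

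Fgfr1, the receptor most tied to the osteoblast lineage in textbook accounts, was higher in mOBs than in either earlier stage. Its gene lies at chr8:25513654-25575718 (GRCm38, plus strand). Its level over the 8 libraries ran from 178 to 274 (median 199) in eOBs, from 154 to 249 (median 205) in dOBs and from 304 to 364 (median 322) in mOBs. Every mOB value lay above every eOB and dOB value, while eOBs and dOBs overlapped. The mOBs exceeded eOBs by 1.08 ± 0.10 (adjusted p = 5.81e-08) and dOBs by 1.06 ± 0.10 (adjusted p = 1.66e-07), and dOBs minus eOBs was 0.02 ± 0.10 (adjusted p = 0.956). Among all classes the order of the medians was mOBs, dOBs, eOBs, fibroblast-like cells (186), the cells left unnamed (185), Col2a1-high cells (170), mural-like cells (91.5), endothelial-like cells (58.9), haematopoietic-like cells (20.5) and erythroid-like cells (9.17). The first step of that order held in 8 of 8 libraries, whereas dOBs exceeded eOBs in 3 and eOBs exceeded fibroblast-like cells in 3. Between mOBs and eOBs 35.5% of the 9991 genes tested were called (17.9% higher and 17.6% lower in mOBs), so a call by itself was common at this contrast.

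**Figure D1:**
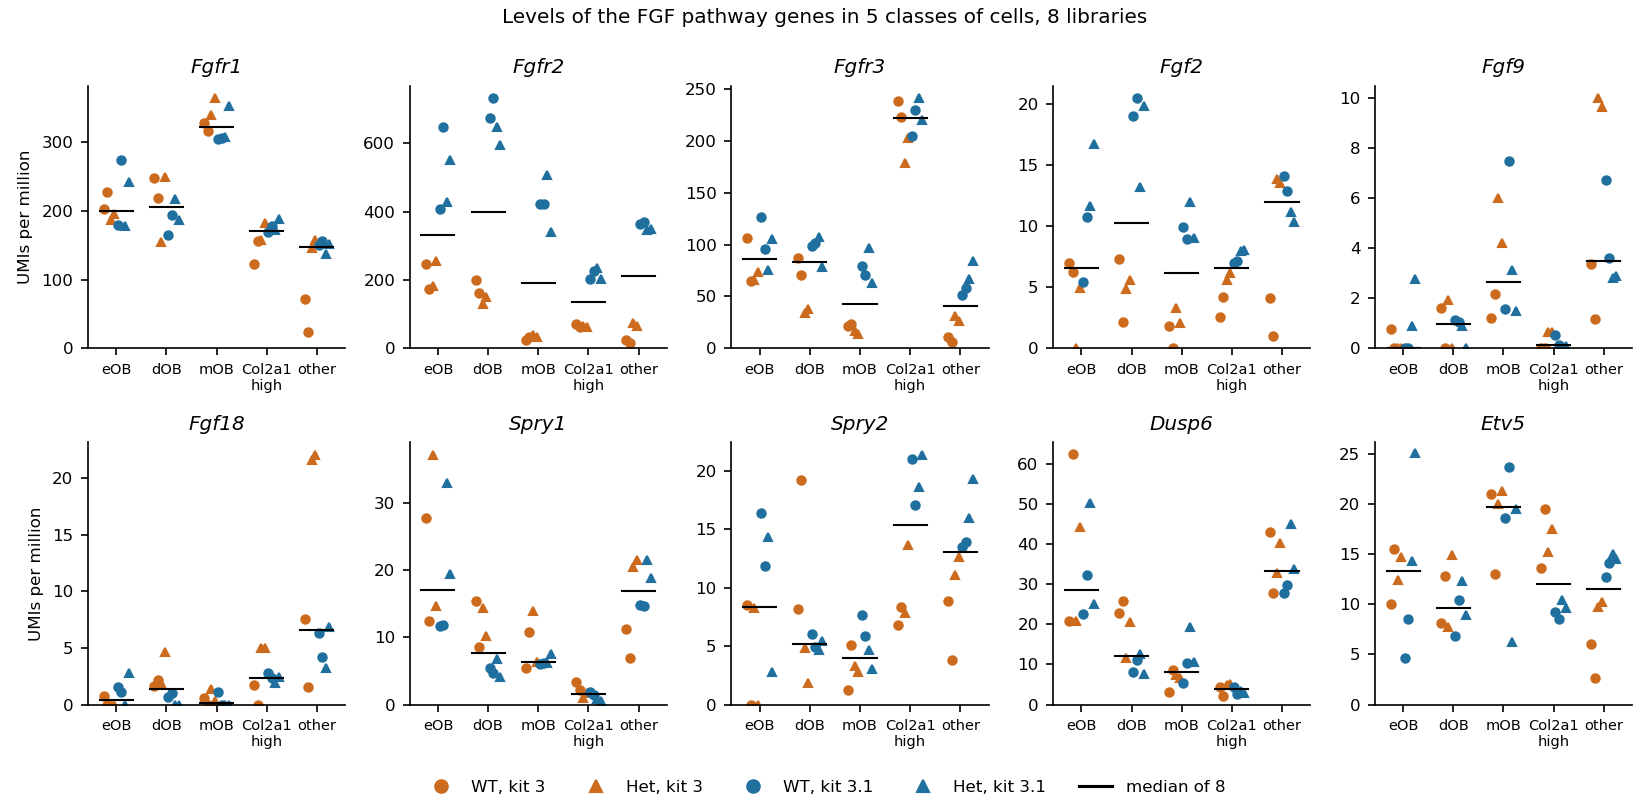
Levels of the 10 members (vertical axes, UMIs on the counts-per-million scale) in eOBs, dOBs, mOBs, Col2a1-high cells and other cells, with 1 point per library (circles WT, triangles Het, orange kit version 3, blue kit version 3.1) and a line at the median of the 8. Fgfr1 of mOBs sat between 304 and 364 and above every eOB and dOB value, while Fgfr2 split by kit version in every class.

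The fitted differences were relative to the median gene. With plain totals instead of TMM factors, the median of all genes shifted by 0.44 between mOBs and eOBs, 0.35 between mOBs and dOBs and 0.17 between OBs and the further cells on the log2 scale, and by under 0.1 in the dOB and Col2a1-high comparisons. Fgfr1, Spry1 and Dusp6 kept their mOB against eOB calls under plain totals. Etv5 did not (0.61 ± 0.30, adjusted p = 0.0745), and Fgfr3 gained one (-0.97 ± 0.23, adjusted p = 0.00133).

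Fgfr2, the receptor whose activating changes cause most syndromic closure of skull sutures, differed between kit versions in all 3 OB stages. In eOBs its level was 248, 174, 182 and 255 in S1 to S4 and 408, 646, 427 and 552 in S5 to S8. In mOBs it was 24.6, 34.0, 39.96 and 34.0 in S1 to S4 and 423, 423, 507 and 342 in S5 to S8. The 2 kit versions did not overlap in either stage, and the mOBs of kit version 3 lay below all its eOBs. In dOBs the levels of S1 to S4 ran from 130 to 199 and those of S5 to S8 from 595 to 731.

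Over all 8 libraries Fgfr2 was lower in mOBs than in eOBs (-0.82 ± 0.28, adjusted p = 0.0283, lower in 6 of 8 libraries) and than in dOBs (-0.89 ± 0.27, adjusted p = 0.0159, lower in 8 of 8). Between mOBs and dOBs 28.3% of genes were called, 13.8% higher and 14.5% lower. The Fgfr2 call against dOBs was lost within kit version 3.1 (-0.34 ± 0.13, adjusted p = 0.106). It was also lost with each cell thinned to 2000 UMIs (-0.50, adjusted p = 0.116) and without the library as a block (-0.59, adjusted p = 0.600). Within kit version 3 the mOB minus eOB difference of Fgfr2 was -2.20 ± 0.19 (adjusted p = 8.59e-07), and within kit version 3.1 it was 0.13 ± 0.14 (adjusted p = 0.554). The test of that difference between kit versions gave 2.28 ± 0.24 (adjusted p = 6.04e-06), where 6.01% of genes were called. Leaving out S1, S2, S3 or S4 ended the eOB call, with -0.57 without S1 (adjusted p = 0.0991), -0.71 without S2, -0.72 without S3 and -0.63 without S4, and so did leaving the library out of the model as a block (-0.36, adjusted p = 0.736).

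**Figure D2:**
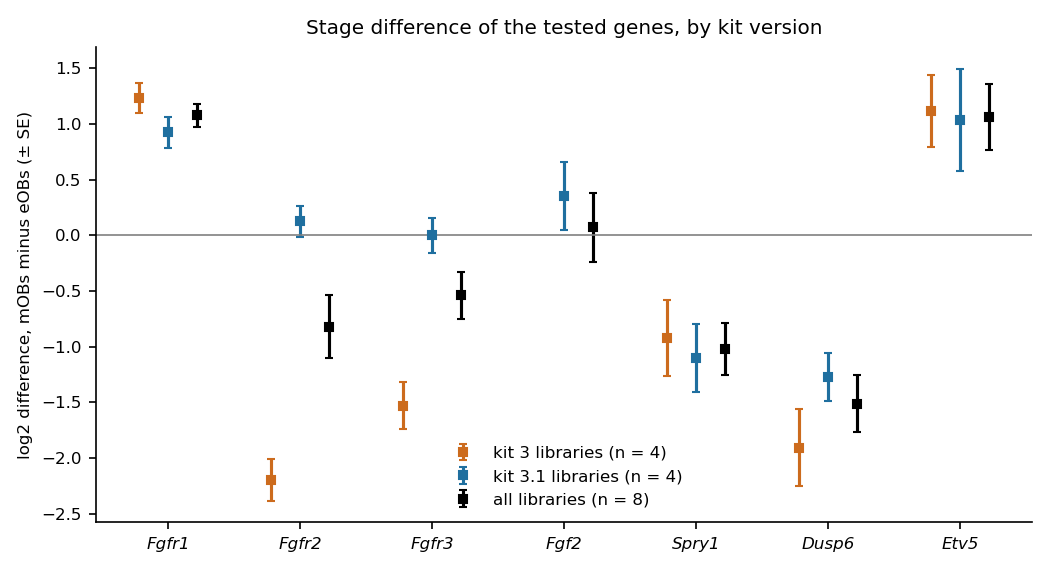
Log2 differences of mOBs minus eOBs (vertical axis, points with standard errors) for the 7 members tested over all 8 libraries (black), with the fits on the 4 kit version 3 libraries (orange) and the 4 kit version 3.1 libraries (blue) beside them. Fgfr2 and Fgfr3 lay at -2.20 and -1.53 with kit version 3 and near 0 with kit version 3.1, whereas Fgfr1, Spry1, Dusp6 and Etv5 kept 1 direction; Fgf2 did not pass the filter with kit version 3 alone.

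The kit difference itself was fitted in mOBs, where it was called for 58.1% of genes. Fgfr2 was 3.27 ± 0.15 higher with kit version 3.1 (adjusted p = 1.08e-08), above 97.7% of the 9623 genes tested. The same difference of Fgfr2 was 1.81 in dOBs, 0.98 in eOBs, 1.64 in Col2a1-high cells and 2.92 in the further cells. In mOBs Fgf2 (2.06 ± 0.40) and Fgfr3 (1.68 ± 0.18) were also higher with kit version 3.1, and Fgfr1 (-0.51 ± 0.11) and Spry1 (-0.85 ± 0.32) were lower. Values for Dusp6 were 0.48 ± 0.36 (adjusted p = 0.273) and for Etv5 -0.63 ± 0.32 (adjusted p = 0.103).

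The kit difference moved with the genomic length of a gene. Over the mOB genes its median was -0.62 for the 2049 genes spanning under 10 kb, -0.25 from 10 to 30 kb, 0.32 from 30 to 100 kb and 1.38 for the 1525 genes over 100 kb, of which 64.0% were over 1. For 240 genes with almost no introns the median was -0.68. Fgfr2 spanned 2960.9 kb in the gene models used (chr7:130162451-133123350, minus strand), with 21 listed genes of the same strand inside its span. If reads in introns were counted, reads of those genes could not be told apart from its own by position alone. The RefSeq start whose window is printed above lies inside that span, 104 kb from its 3′ end, so the place of Fgfr2 on this scale depends on the annotation, although both lengths are over 100 kb. Fgfr1 spanned 62.1 kb, Fgf2 61.8 kb, Etv5 58.4 kb, Fgf9 42.2 kb, Fgf18 29.97 kb and Fgfr3 15.4 kb. The shortest were Spry2 at 4.87 kb, Spry1 at 4.65 kb and Dusp6 at 4.26 kb. Whether reads in introns were counted is not given in the sources used here, and the part of intron reads in the Fgfr2 levels was not tested.

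**Figure D3:**
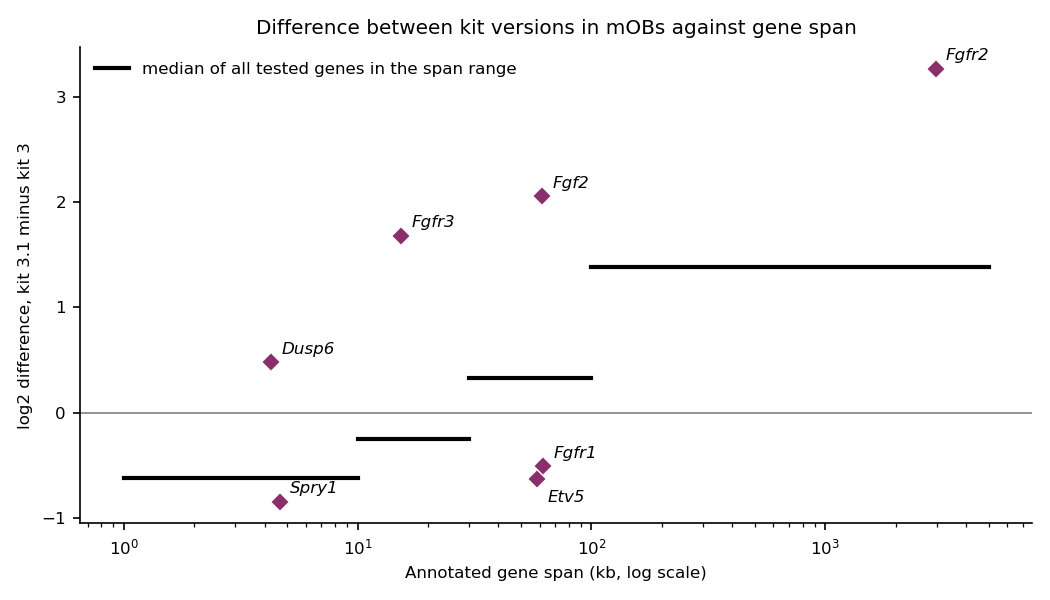
Log2 difference between kit versions 3.1 and 3 in mOBs (vertical axis) against annotated gene span in kb (logarithmic horizontal axis), with diamonds for the 7 members tested and bars at the median of all genes in each range of span (the outer ranges are open at their outer ends). The medians rise from -0.62 to 1.38 with span, and Fgfr2, drawn at its GENCODE span, lies at the far right at 3.27, with Fgfr3 and Fgf2 also above the median of their range and Fgfr1 and Etv5 below it.

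Fgfr3, the receptor that restrains growth plate cartilage, was highest in the Col2a1-high cells. The gene lies at chr5:33721674-33737068 on the plus strand (GRCm38). Its level in the Col2a1-high cells ran from 179 to 241 (median 222), against 22.7 to 98.7 (median 72.7) in OBs and 6.08 to 83.9 in the further cells. The Col2a1-high values lay above all OB values, with OBs lower by 1.98 on the log2 scale (log2 difference -1.98 ± 0.31, adjusted p = 3.73e-05). Within OBs the medians were 85.8 in eOBs, 82.8 in dOBs and 43.2 in mOBs. The mOB level was 21.6, 23.2, 16.7 and 13.3 in S1 to S4 and 79.9, 71.0, 96.7 and 63.2 in S5 to S8, without overlap.

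For Fgfr3 the mOB minus eOB value was -0.54 ± 0.21 (adjusted p = 0.0523) and the mOB minus dOB value -0.42 ± 0.19 (adjusted p = 0.111). Within kit version 3 the mOB minus eOB difference was -1.53 ± 0.21 (adjusted p = 7.36e-05) and within kit version 3.1 it was -0.00 ± 0.16 (adjusted p = 0.998), and the difference between kit versions was 1.49 ± 0.28 (adjusted p = 0.00231). Cartilage markers differed between the kit versions too. The summed level of the 8 cartilage markers was 171 to 2057 in eOBs and 1398 to 2309 in mOBs with kit version 3, higher in mOBs in all 4 libraries, where Fgfr3 was lower. With kit version 3.1 it was 6878 to 18025 in eOBs and 3022 to 4289 in mOBs, lower in all 4, where the Fgfr3 difference was near 0. If all Col2a1 in OBs had come with the RNA profile of Col2a1-high cells, it would have carried a median of 23.4% of the Fgfr3 level of eOBs (at most 15.9% in the kit version 3 libraries and from 30.9% to 64.0% in those of kit version 3.1) and 4.48% of that of mOBs. Without the 171 OBs over 1% Col2a1 (1 or 2 per library with kit version 3, and 10 to 114 with kit version 3.1) the Fgfr3 difference between mOBs and eOBs over all 8 libraries was -0.11 ± 0.27 (adjusted p = 0.80), and the part of cartilage RNA in the difference between kit versions was not tested.

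Of the UMIs of Fgfr1 to Fgfr4 together, mOBs gave more to Fgfr1 than eOBs did. Counts of a 3′ assay are not scaled by gene length, and the shares depend on the kit as the levels do. The Fgfr1 share was 33.6% ± 8.98 (SD, n = 8) in eOBs, 35.0% ± 16.4 in dOBs and 62.8% ± 25.7 in mOBs. It was higher in mOBs than in eOBs in 8 of 8 libraries, by 29.1 ± 18.3 percentage points, the kit version means being 45.3 (3) and 13.0 (3.1). The Fgfr2 share was 21.8 ± 14.4 points lower in mOBs (difference -21.8) and the Fgfr3 share 6.84 ± 4.91 points lower (difference -6.84), each in 8 of 8 libraries. By kit version the means were -34.5 (3) and -9.13 (3.1) points for Fgfr2 and -10.7 and -2.98 for Fgfr3. The shares add up to 100% with Fgfr4, so a higher Fgfr1 level lowers the others, and with kit version 3.1 the fitted level differences were 0.13 for Fgfr2 and -0.00 for Fgfr3. All 3 had p = 0.00781 in an exact two-sided sign-flip test, the smallest p that 8 libraries allow, and 0.00781 after adjustment over the 3 receptors. In mOBs Fgfr1 made up from 84.7% to 88.4% of receptor UMIs in the kit version 3 libraries and from 33.7% to 46.5% in those of kit version 3.1. Fgfr1 led in the mOBs of S1 to S4 and of S8, where it stood at 46.5% against 45.1% for Fgfr2, and Fgfr2 led in S5, S6 and S7.

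**Figure D4:**
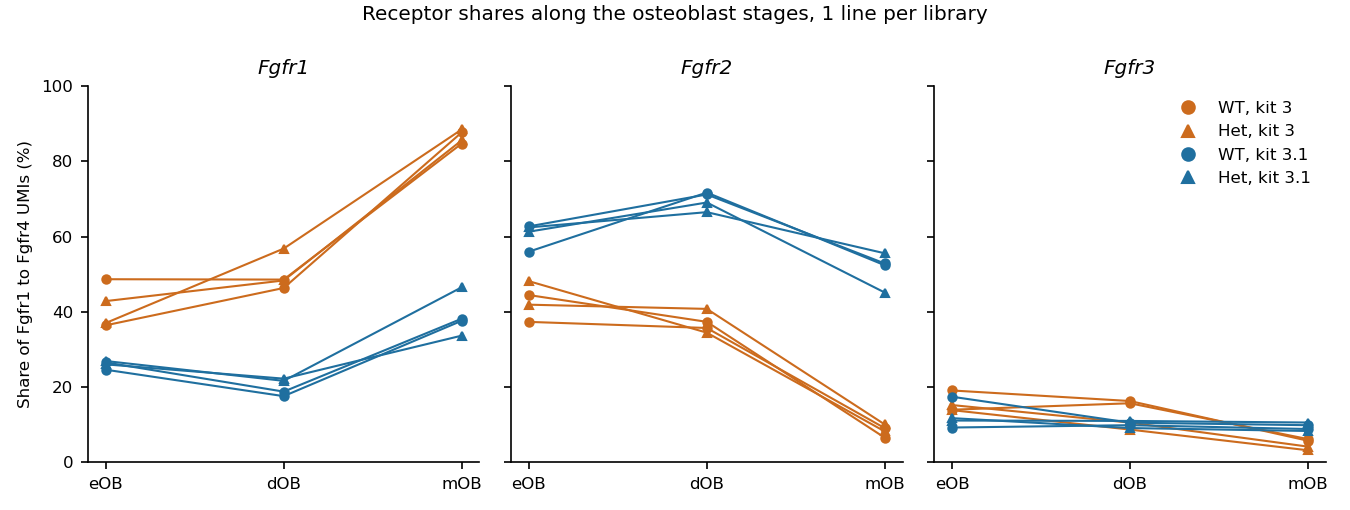
Share (%, vertical axes) of Fgfr1, Fgfr2 and Fgfr3 in the UMIs of Fgfr1 to Fgfr4 across the OB stages (horizontal axes), with 1 line per library (circles WT, triangles Het, orange kit version 3, blue kit version 3.1). The Fgfr1 share was higher in mOBs than in eOBs in all 8 libraries, and the Fgfr2 lines of the 2 kit versions did not meet at any stage.

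The share of cells with at least 1 UMI followed the levels once each cell was thinned to 2000 UMIs. For Fgfr1 it ran from 35.3% to 53.1% (median 41.5%) in mOBs and had a median of 30.1% in eOBs, against 3.46% in haematopoietic-like cells, taken as the background of free RNA, although whether these cells express the gene was not tested. Without thinning the medians were 93.0% in mOBs and 12.7% in haematopoietic-like cells, at median depths of 12348 to 21116 and 3074.5 to 16490 UMIs per cell. For Fgfr2 the thinned median of mOBs was 6.76% with kit version 3 and 52.4% with kit version 3.1, and that of haematopoietic-like cells was 0.875% and 10.7%. For Fgfr3 it was 34.6% in Col2a1-high cells, 5.34% in mOBs and 0.975% in haematopoietic-like cells. In these single-library sums, fewer cells with a transcript and less of it per cell cannot be told apart by the level alone.

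The ligands were sparse in OBs. On GRCm38 their genes lie at chr3:37348346-37410108 (Fgf2, plus strand, overlapping Nudt6 on the other strand), chr14:58070547-58112720 (Fgf9, plus strand) and chr11:33117430-33147400 (Fgf18, minus strand). Fgf2, a ligand stored in the bone matrix, ran from 0 to 16.7 in eOBs, from 2.14 to 20.4 in dOBs and from 0 to 12.0 in mOBs, and all 3 ranges overlapped. The 0 of the S3 eOBs allows a level of up to 12.4 and that of the S2 mOBs up to 2.17 (3 UMIs, counting error only). Fgf2 was lower in mOBs than in dOBs in 8 of 8 libraries (-0.65 ± 0.24, adjusted p = 0.0452), a call that ended without S1, S3, S4, S5, S6 or S8, with values between -0.59 and -0.68 (adjusted p from 0.0502 to 0.163). Its dOB minus eOB value was 0.72 ± 0.29 (adjusted p = 0.103), at a contrast where 14.0% of genes were called (6.85% higher, 7.17% lower). The highest Fgf2 levels were those of fibroblast-like cells, from 10.1 to 27.5 (median 21.8).

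Fgf9 gave 3 UMIs in all eOBs, 20 in dOBs and 76 in mOBs, and Fgf18 gave 5, 20 and 9, so both failed the filter on low counts in OBs. Fgf9, a ligand of bone and cartilage growth, was at 1.20, 2.17, 1.57 and 7.49 in the mOBs of the WT libraries S1, S2, S5 and S6 and at 5.99, 4.20, 3.12 and 1.504 in those of the Het libraries S3, S4, S7 and S8. It was higher in mOBs than in eOBs in 7 of 8 libraries, but with 3 UMIs in all eOBs no fold is given. Fgf9 was highest in fibroblast-like cells, from 11.8 to 21.9 (median 17.5) with 8 of 8 libraries above the next class. Fgf18, the ligand that the calvarial mesenchyme is best known for, also had its highest median there, 23.7 with a range of 4.01 to 49.5, against at most 1.33 in mOBs. The differences of OBs from the Col2a1-high cells were 3.048 ± 0.41 for Fgf9 and -1.998 ± 0.32 for Fgf18, in a fit that both genes entered only through other classes, so they are a description. The Fgf18 value rests on 34 UMIs in OBs and was 0.21 when OBs needed only 1 UMI of the selecting genes.

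Among the 4 feedback genes and targets, Spry1 and Dusp6 were higher in eOBs than in both later stages. Dusp6 had levels of 20.7 to 62.3 (median 28.6) in eOBs, 7.52 to 25.7 (median 12.1) in dOBs and 2.9996 to 19.2 (median 8.004) in mOBs. All mOB values lay below all eOB values, and dOBs overlapped both. The differences were -1.51 ± 0.26 for mOBs minus eOBs (adjusted p = 9.56e-05) and -1.20 ± 0.25 for dOBs minus eOBs (adjusted p = 0.00254), while mOBs minus dOBs was -0.31 ± 0.25 (adjusted p = 0.386).

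Spry1 ran from 11.7 to 37.3 (median 17.1) in eOBs, from 4.10 to 15.5 (median 7.66) in dOBs and from 5.399 to 14.0 (median 6.27) in mOBs. The ranges overlapped, but mOBs and dOBs each lay below eOBs within 8 of 8 libraries. The differences from eOBs were -1.02 ± 0.24 in mOBs (adjusted p = 0.00179) and -1.31 ± 0.23 in dOBs (adjusted p = 0.000654), and mOBs minus dOBs was 0.29 ± 0.22 (adjusted p = 0.362). Both calls were lost without the library as a block, with OBs of at least 3 UMIs of the selecting genes, and within kit version 3. There the values were -0.92 in mOBs (adjusted p = 0.0588) and -0.86 in dOBs (adjusted p = 0.250). The mOB call was also lost with other Col1a1 limits (-0.81, adjusted p = 0.0574).

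Some other classes had more Spry1 or Dusp6 than OBs, and their markers moved with the stage. Dusp6 was highest in endothelial-like cells (107 to 170, median 121) and was at 45.4 to 87.6 in haematopoietic-like cells. Spry1 was highest in mural-like cells (48.0 to 96.0, median 78.4), ahead of endothelial-like cells (35.2 to 60.7), while its medians in haematopoietic-like (11.5), unnamed (9.83), fibroblast-like (4.37) and Col2a1-high cells (1.53) were below that of eOBs. The summed level of 7 mural markers was 421 to 2451 in eOBs and 75.0 to 453 in mOBs, lower in mOBs in 8 of 8 libraries. That of 7 endothelial markers was 21.8 to 1456 and 3.01 to 32.0, and that of 11 haematopoietic markers 8.36 to 1013 and 1.504 to 671, each lower in 7 of 8, and 1 haematopoietic marker was at 0 in both stages. Without OBs holding at least 3 markers of 1 of these classes or of erythroid cells, the mOB minus eOB value was -1.10 ± 0.45 for Dusp6 (adjusted p = 0.0732) and -0.61 ± 0.32 for Spry1 (adjusted p = 0.163), so both calls were lost, as was that of Dusp6 between dOBs and eOBs (-0.70 ± 0.44, adjusted p = 0.374). The values of Fgfr1 (1.003) and Fgfr2 (-0.94) stayed called there. That of Etv5 was 1.34, a description because Etv5 did not pass the filter in eOBs alone. In OBs pooled over stages, the haematopoietic-like level was a median of 531% of the OB level for Dusp6, 137% for Etv5, 129% for Spry1 and 121% for Spry2. It was 8.81% for Fgfr1, 9.63% for Fgfr2 and 8.77% for Fgfr3.

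Spry2 gave 62, 116 and 95 UMIs in eOBs, dOBs and mOBs and failed the filter there. Its levels were 0 to 16.4 in eOBs, 1.86 to 19.2 in dOBs and 1.20 to 7.65 in mOBs, against 12.0 to 60.1 (median 44.5) in mural-like cells. Etv5 had its highest OB median in mOBs. Its level was 4.68 to 25.1 (median 13.4) in eOBs, 6.82 to 14.9 (median 9.64) in dOBs and 6.24 to 23.7 (median 19.8) in mOBs, so the ranges overlapped. The mOBs minus dOBs difference was 1.21 ± 0.24 (adjusted p = 0.000758, higher in 7 of 8 libraries). That of mOBs minus eOBs was 1.06 ± 0.30 (adjusted p = 0.00753, higher in 5 of 8). Etv5 did not pass the filter in eOBs alone, so its value against eOBs is a description, and it was not called under plain totals. In 5 of the mOB libraries Etv5 was at or above 19.6, and the lowest was the Het library S7.

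Of the 7 members tested between mOBs and eOBs, 5 were called beside 35.5% of all genes, Fgfr1 and Etv5 higher and Fgfr2, Spry1 and Dusp6 lower, with a median log2 difference of -0.54 against -0.03 for all genes. Between mOBs and dOBs 4 of 7 were called, beside 28.3% of all genes, Fgfr1 and Etv5 higher and Fgfr2 and Fgf2 lower. Between dOBs and eOBs 2 of 7 were called, beside 14.0% of all genes, Spry1 and Dusp6, both lower in dOBs, the latter not without OBs holding markers of other cells. Of the 7, Fgf2 and Etv5 did not pass the filter in eOBs alone, so their values against eOBs and these counts are a description.

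OBs were then compared with the Col2a1-high and the further cells, a fit that all 10 members entered. Fgf9, Fgf18 and Spry2, which failed the filter in OBs, entered through classes with more of them, so their differences are given as a description. Against the Col2a1-high cells 52.4% of the 14767 genes tested were called (25.5% higher and 26.9% lower in OBs), and 5 of the other 7 members were. Fgfr1 (0.62 ± 0.22), Fgfr2 (0.92 ± 0.24), Spry1 (2.82 ± 0.33) and Dusp6 (1.74 ± 0.18) were higher in OBs, each in 8 of 8 libraries, and Fgfr3 was lower. Spry2 was at -1.46 ± 0.23, and Fgf9 and Fgf18 had the values given above. Spry1 ran from 5.96 to 16.2 in OBs and from 0.481 to 3.41 in Col2a1-high cells, and Dusp6 from 8.64 to 21.1 and from 2.09 to 5.00, neither overlapping. Values for Fgf2 (0.46, adjusted p = 0.172) and Etv5 (0.17, adjusted p = 0.62) did not pass. The Fgfr1 call ended without S1 (0.55, adjusted p = 0.0624) and without S4 (0.58, adjusted p = 0.0627). It was also lost with OBs of at least 1 UMI of the selecting genes (0.42, adjusted p = 0.127) and within kit version 3 (0.99, adjusted p = 0.0630). The Fgfr2 call was lost within kit version 3 (0.68, adjusted p = 0.214) and without the library as a block (1.08, adjusted p = 0.158).

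Against the further cells 4 of the same 7 were called, beside 45.6% of all genes (19.6% higher, 26.0% lower). Fgfr1 (1.37 ± 0.22) and Fgfr2 (1.10 ± 0.23) were higher in OBs in 8 of 8 libraries. Fgfr3 was called higher (0.94 ± 0.30, adjusted p = 0.0179, 0.0511 without S1) but was higher in 5 libraries and lower in 3. Dusp6 was lower (-1.21 ± 0.16) in 8 of 8. Fgf9 was at -0.99 ± 0.31, Fgf18 at -3.16 ± 0.30 and Spry2 at -0.96 ± 0.23. Spry1 was at -0.57 (adjusted p = 0.0922) and Etv5 at 0.62 (adjusted p = 0.0533). Over 20 refits, none of them chosen after seeing the data, Etv5 ran from 0.39 to 0.86 (adjusted p from 0.0178 to 0.227). Whether it was called thus depended on the setting. For Etv5 that comparison differed between kit versions (-1.30 ± 0.29 for kit version 3.1 minus 3, adjusted p = 0.016). The share of all genes called in this test is not given here. The further cells of S1 and S2, both of kit version 3, were rich in haematopoietic-like cells, so kit version and cell mix cannot be told apart.

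The rest of the pathway was read from 6 lists, whose counts stand beside 17.9% of all genes higher and 17.6% lower between mOBs and eOBs. Between mOBs and eOBs, 1 of 15 other ligands passed the filter, Fgf7, a ligand of Fgfr2 splice forms, with a difference of -1.65 ± 0.35. Fgf7 did not pass the filter in mOBs alone and entered through the earlier stages, so its direction is a description. Of 4 other receptors and co-receptors 1 was tested, the decoy-like receptor Fgfrl1, which was also lower (-1.58 ± 0.22). Of 16 adaptors and members of the RAS-ERK cascade 4 were higher, Map2k2 (0.54), Hras (0.50), Grb2 (0.45) and Nras (0.38), and 2 lower, Gab1 (-1.18) and Shc1 (-0.71), with a list median of -0.07 against -0.03 for all genes, and the 6 of 16 called were near the 35.5% of all genes. Among other feedback inhibitors and targets Flrt2 (-0.66) and Spred2 (-0.46) were lower and Dusp7 (0.64) and Flrt3 (0.51) higher. Spry4, a Sprouty protein like Spry1, was at -2.15 ± 0.43, but it too failed the filter in mOBs alone and its value is a description.

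Heparan sulphate proteoglycans and the enzymes that modify them, which present FGFs to receptors, had calls in both directions, as all genes did. Of 16 tested 5 were higher in mOBs, Gpc1 (1.28), Sdc3 (0.90), Gpc4 (0.52), Hspg2 (0.47) and Gpc3 (0.43), and 5 lower, Gpc6 (-0.997), Sdc4 (-0.99), Sdc1 (-0.98), Sulf2 (-0.71) and Hs2st1 (-0.42). Of 10 regulators of calvarial sutures 5 were lower in mOBs, Foxc1 (-1.71), Msx1 (-1.14), Msx2 (-0.99), Zic1 (-0.80) and Tcf12 (-0.33), and Twist1 was higher (1.047), with a median of -0.34. Against the Col2a1-high cells, 3 of the 15 other ligands could be tested, with differences of 4.57 ± 0.45 for Fgf7, 4.13 ± 0.38 for Fgf10 and 2.37 ± 0.31 for Fgf1, and Fgfr4 (-3.65 ± 0.38) and Fgfrl1 (-3.09 ± 0.30) were on the other side of 0. Sparse genes such as these can pass the filter through the class where they are high, so these directions are a description. In the same comparison Etv4, the close relative of Etv5, was at 2.25 ± 0.38 and Spry4 at 1.48 ± 0.27, with the same limit, among 5 higher and 2 lower of 12 in their list. Of the other lists there, beside 25.5% of all genes higher and 26.9% lower, 5 were higher and 3 lower of 17 cascade genes, 5 and 4 of 17 proteoglycan genes, and 3 and 4 of 10 suture regulators, with Dlx5 (2.94) and Zic1 (-2.36) at the ends.

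WT and Het were compared in each class with kit version in the model, to see whether mutant procollagen went with a different FGF programme. In mOBs, where 0.530% of 9623 genes were called, no member was called by edgeR or by DESeq2, and none of the 7 tested had an unadjusted p under 0.05. Fgfr1 was at 328, 316, 304 and 305 in WT and at 339, 364, 307 and 352 in Het, overlapping ranges with a difference of 0.06 ± 0.11 (adjusted p = 0.897). For Fgfr2 the value was 0.07 ± 0.15, for Fgfr3 -0.16 ± 0.18, for Fgf2 0.33 ± 0.34, for Spry1 0.10 ± 0.33 and for Etv5 -0.39 ± 0.32. Leaving out 1 library turned the sign of Fgfr1 without S8 (-0.02), of Fgfr2 without S1 (-0.02) or S7 (-0.05), of Spry1 without S1 (-0.11) or S3 (-0.16) and of Etv5 without S7 (0.10). Fgfr3 ranged from -0.47 without S7 to -0.05 without S4, and Etv5 was at 0.20 within kit version 3 and -1.15 within kit version 3.1.

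Dusp6 had the lowest p of the members in mOBs. It was at 2.9996, 8.68, 5.399 and 10.4 in WT and 7.33, 6.65, 19.2 and 10.5 in Het, overlapping, with a difference of 0.72 ± 0.35 (unadjusted p = 0.0603, adjusted p = 0.473 in edgeR's test). That of Dusp6 was 0.29 without S7, 0.40 without S5 and up to 0.997 without S2. The receptor shares of mOBs differed between genotypes by 1.51 points for Fgfr1, -0.475 for Fgfr2 and -1.09 for Fgfr3. Their exact permutation p-values over 70 assignments were 0.886, 0.971 and 0.6 (0.971 each after adjustment), where the smallest possible was 0.0286, but these assignments cross the kit versions, between which the shares differed more than between genotypes. Over the 36 assignments within kit versions, added after seeing the data, the p-values were 0.778, 0.944 and 0.278 (0.944, 0.944 and 0.833 after adjustment), where the smallest possible was 0.0556, so this test could not reach 0.05. Within kit version 3 and 3.1 the Fgfr1 difference was 0.821 and 2.20 points, that of Fgfr2 1.32 and -2.27, and that of Fgfr3 -2.27 and 0.0945.

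**Figure D5:**
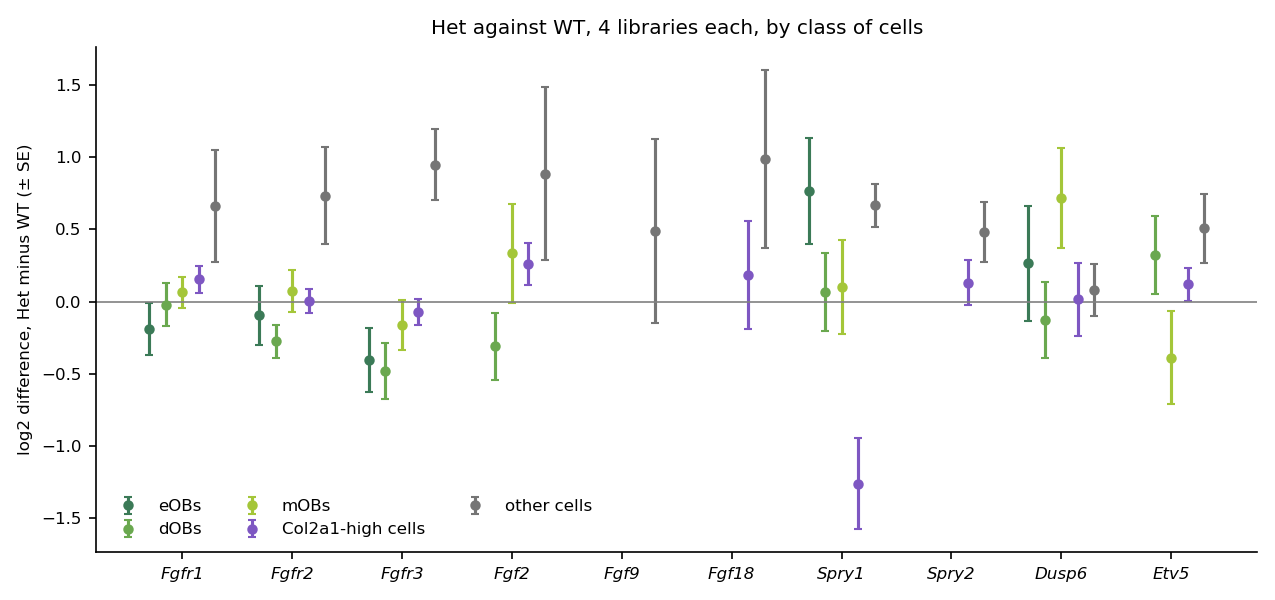
Log2 differences of Het minus WT (vertical axis, points with standard errors, 4 libraries each) for the members (horizontal axis) in eOBs, dOBs, mOBs, Col2a1-high cells and other cells, where the member passed the filter in that class. None was called by edgeR, all 10 points of the other cells lay above 0, and the point farthest from 0 was Spry1 in Col2a1-high cells (-1.26).

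In dOBs 0.0101% of genes were called and, by edgeR and DESeq2, none of the 7 members tested, with 2 at an unadjusted p under 0.05 (against 740 of all 9857 genes), Fgfr2 (-0.28 ± 0.11) and Fgfr3 (-0.48 ± 0.20), both at an adjusted p of 0.645. Fgfr3 of dOBs was at 87.0 and 70.6 in WT and 33.7 and 38.2 in Het with kit version 3 (-1.15 ± 0.23 within it). With kit version 3.1 it was at 99.1 and 102 in WT and 107 and 78.7 in Het (-0.11 ± 0.16). Each of these differences rests on 2 libraries per genotype. Without S7 its difference was -0.76, and without S1 it was -0.28. In eOBs 0% of genes were called by edgeR (310 of 8118 at an unadjusted p under 0.05, 3 called by DESeq2). None of the 5 members tested there was called by either tool or had an unadjusted p under 0.05. The genotype effect was not shown to differ between mOBs and dOBs for the 7 members tested, where edgeR's test of the difference called 0% of genes (488 of 10580 at an unadjusted p under 0.05, 3 called by DESeq2) and 0 members had an unadjusted p under 0.05. In Col2a1-high cells 0.0913% of genes were called. The member with the lowest p there, Spry1, was at 3.41, 2.09, 1.93 and 1.38 in WT and 0.962, 1.67, 0.819 and 0.481 in Het, which overlapped in S4, with a difference of -1.26 ± 0.32 (unadjusted p = 0.00207, adjusted p = 0.368 in edgeR's test). The first 2 WT values, of S1 and S2, come from 101 and 150 cells and rest on a few UMIs each.

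In the further cells 0% of genes were called by edgeR, although 3725 of 15903 had an unadjusted p under 0.05 and DESeq2 called 1545. All 10 members had a difference above 0, with a median of 0.66 against 0.03 for all genes, and 3 of them had an unadjusted p under 0.05. Dusp6 (0.08) fell below 0 without S5 or S7 and with thinned cells (-0.27), and Fgf9 (0.49) without S2 (-0.06). Spry1 was at 11.2, 6.93, 14.9 and 14.7 in WT and 20.6, 21.5, 21.5 and 18.9 in Het. Of 50 pairs of member and class this was the 1 with every Het library above every WT library. How many of all genes separated in this way was not counted. The difference of Spry1 was 0.67 ± 0.15 (adjusted p = 0.157), and DESeq2 called it (0.64, adjusted p = 0.00159) together with Fgfr3 (0.93, adjusted p = 0.0113). The third was Spry2 (0.49 ± 0.21). The haematopoietic-like cells, most of them in the WT libraries S1 and S2, numbered 5266 in WT and 1218 in Het. With haematopoietic-like and erythroid-like cells left out, the differences were 0.19 for Spry1 (adjusted p = 0.522) and 0.43 for Fgfr3 (adjusted p = 0.231), and those of the other members lay between 0.02 (Fgf9) and 0.47 (Fgf18).

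None of the tested genes of the 6 pathway lists was called between Het and WT in mOBs by edgeR. By list, the 2 with the lowest p were Fgf1 (-0.41) and Fgf10 (-0.17) among ligands, Gab1 (-0.30) and Mapk3 (-0.32) in the cascade, Flrt3 (-0.57) and Flrt2 (-0.44) among feedback genes, Gpc4 (-0.43) and Hspg2 (0.34) among proteoglycan genes, and Dlx5 (-0.38) and Efnb1 (-0.34) among suture regulators. Fgfrl1 (-0.16) was the 1 receptor tested. An unadjusted p under 0.05 was reached by 0 of the ligands, receptors and cascade genes, 2 of 6 feedback genes, 7 of 16 proteoglycan genes and 4 of 10 suture regulators, and by 1076 of all 9623 genes.

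For each member the genes with the most similar levels were found over 40 points, the 8 libraries by eOBs, dOBs, mOBs, Col2a1-high and further cells, as Pearson's r of log2(level + 1). The points share libraries and kit versions, so r describes both cell class and kit. Fgfr1 was most like Slc39a14 (r = 0.88), Ryk and Gpr153. Fgfr2 was most like Zfhx3 (r = 0.95), Fancc and Efna5, and Fgfr3 like Rcn2 (r = 0.93), 1190002N15Rik and Col27a1. Among ligands Fgf2 was most like Trpc1 (r = 0.86), Sntb2 and Slc26a11, Fgf9 like Nnmt (r = 0.68), Pltp and Itm2b, and Fgf18 like Ly6a (r = 0.74), Col14a1 and Txnip. Among feedback genes and targets Spry1 was most like Ifitm3 (r = 0.86), Fam171a2 and BC028528, Spry2 like Dnajb9 (r = 0.82), Sgk1 and Lztfl1, Dusp6 like BC028528 (r = 0.91), Ctsc and Hdac7, and Etv5 like Golga4 (r = 0.66), Pik3ip1 and Vasn. BC028528 was thus among the 3 nearest genes of both Spry1 and Dusp6.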

How the data were processed

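Parietal bone cells of 4 WT and 4 Het libraries were measured by 10x Genomics 3′ single-cell RNA sequencing. The deposited values are whole UMI counts of each gene in each cell. The authors obtained them from Cell Ranger 5.0.0 (S1 to S4) and 6.0.1 (S5 to S8) per the file headers, on build mm10 per the labels. Whether intron reads were counted is not given in the sources used here. Doublets were kept, and an alternative left out OBs with at least 3 haematopoietic, endothelial, mural or erythroid markers (not those with cartilage or fibroblast markers). The members, lists and named genes were chosen with earlier results of these data known.

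For each library the counts were added up within a class. Genes were tested with edgeR 4.0.16 (TMM factors, filterByExpr, quasi-likelihood test, Benjamini-Hochberg adjustment, threshold 0.05) in R 4.3.3. Stages and cell classes were compared with the library as a block, and Het with WT with a kit term, within each class and, for mOBs against dOBs, by an interaction term. Same-numbered WT and Het libraries did not deviate together (correlations -0.12 to 0.15), so the numbers were not taken to pair them. DESeq2 1.42.0 was an alternative. The scripts were tested on simulated data. The text names every member, and of each pathway list the called genes or the 2 with the lowest p. Other classes were named from marker genes: haematopoietic-like, erythroid-like, endothelial-like, mural-like, fibroblast-like, or unnamed (12305 cells). Receptor shares were compared by exact permutation tests in Python 3.11.15 with scipy 1.17.1. For shares of cells with a UMI, each cell was thinned to 2000 UMIs, which left out 90 OBs. Promoters are RefSeq's on GRCm38.p6, and gene spans come from GENCODE M21, which held 30934 of the 31053 gene identifiers (99.6%).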

Additional observations from a re-analysis of the deposited data

Results flagged for a closer look

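Each group of 4 libraries was examined for 1 library far from the other 3 (Dixon's test at 95%), and 8 of 100 groups of member, class and genotype had one. The test's rate of 1 in 20 holds for 4 values of 1 normal distribution. Each group mixed both kit versions, and the groups share libraries, so no excess over chance is read from the 8. Spry1 accounted for 3. In WT eOBs it was at 27.8 CPM in S1 against 11.7 to 12.5, in WT mOBs at 10.9 in S2 against 5.399 to 6.24, and in Het mOBs at 14.0 in S3 against 6.24 to 7.52. Dusp6 of the further WT cells was at 43.0 in S1 against 27.7 to 29.9. Etv5 of Het mOBs was at 6.24 in S7 against 19.6 to 21.4. Fgf9 of WT mOBs was at 7.49 in S6, which holds 36 UMIs, against 1.20 to 2.17. Single UMIs gave the last 2, Fgf9 of WT eOBs at 0.771 in S1 and Fgf18 of Het eOBs at 2.79 in S8, with the others at 0.

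The mOB minus eOB difference itself differed between kit versions for Fgfr2, by 2.28 on the log2 scale, and for Fgfr3, by 1.49, in the edgeR test of the difference (adjusted p = 6.04e-06 and 0.00231). Kit version, counting software and any other difference between S1 to S4 and S5 to S8 cannot be told apart.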

How the results depend on the processing

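Members called differed by over 1.5 times under the settings that follow. Calls over all genes change with the setting too, as given below for mOBs against eOBs without the replicate block. The member counts are therefore not read as results about the members. Without the replicate block (the library), 3 were called between mOBs and eOBs, 2 between mOBs and dOBs and 0 between dOBs and eOBs by edgeR. With cells thinned to 2000 UMIs the counts were 1, 1 and 0 of only 3 members tested. Within kit version 3.1, chosen after seeing the data, they were 3, 2 and 5, and within kit version 3 they were 0 between dOBs and eOBs and 5 between OBs and Col2a1-high cells (8 of all 10 with all libraries), with fewer libraries. Between dOBs and eOBs 5 were called with OBs of at least 1 UMI of the selecting genes, and 1 with at least 3 UMIs, without OBs holding markers of other cells, or with other Col1a1 limits. DESeq2 called 2 between Het and WT in the further cells. The replicate block by library number called 0 members between Het and WT in each class. Fgfr2 turned direction between mOBs and eOBs within kit version 3.1 (0.13), and Fgf18 between OBs and Col2a1-high cells with OBs of at least 1 UMI (0.21). Leaving out 1 library at a time gave 4 to 6 members called between mOBs and eOBs, 3 to 5 between mOBs and dOBs, 2 between dOBs and eOBs, 7 to 8 of all 10 against each comparison class and 0 between genotypes. The counts of all 10 include Fgf9, Fgf18 and Spry2, whose class values are a description.

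The receptor share differences between mOBs and eOBs passed the test except for Fgfr2 with OBs of at least 1 UMI (-15.9 points) or thinned cells (-16.7), and for Fgfr3 with at least 3 UMIs (-4.29), without OBs over 1% Col2a1 (-3.96) or thinned (-10.8). Without 1 library each they were 25.97 to 32.2 points for Fgfr1, -24.4 to -19.2 for Fgfr2 and -7.76 to -5.91 for Fgfr3. The genotype differences ran from -6.79 to 11.5 for Fgfr1, -9.08 to 7.07 for Fgfr2 and -2.42 to 0.0342 for Fgfr3, which was -5.03 with thinned cells. Leaving out 1 library unbalances the kit versions, so these ranges carry the kit gap. The mean of the within-kit differences then ran from -1.70 to 4.72, -3.08 to 2.13 and -1.65 to -0.526. The causes were not tested beyond what each setting removes.

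Over single members, apart from the settings chosen after seeing the data, 172 of 200 refits kept a stage call and 28 lost it, and 288 of 298 kept a class call, 9 lost it and 1 reversed. Of the settings chosen after seeing the data, 24 of 32 kept a stage call, 7 lost it and 1 reversed, and 38 of 45 kept a class call and 7 lost it. These tallies include Fgf9, Fgf18 and Spry2 against other classes and Etv5 against eOBs, whose values are a description. Among results not called, 12 of 181 refits gained a stage call and 18 of 100 a class call. Under settings chosen after seeing the data these were 8 of 28 and 5 of 15. Etv5 lost its mOB against eOB call within kit version 3.1 (1.03, adjusted p = 0.122). Of all genes, 51 were called between Het and WT in mOBs by edgeR, against 130 by DESeq2, 536 with no filter on low counts, 0 with no kit term, 26 with the replicate block, 25 with thinned cells, 82 with other Col1a1 limits and 11 to 166 without 1 library. In dOBs 1 was called, against 4 by DESeq2 and 269 with no filter, and in the further cells 0 against 1545 by DESeq2. Between mOBs and eOBs 3551 were called, and 1872 without the replicate block. Depth limited Fgf9, Fgf18 and Spry2 in OBs, which rest on 99, 34 and 273 UMIs.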
